A study of Homo sapiens with 54 samples.

Results

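The 41 genes described here are very long human genes, each annotated at 500 kb or more of the genome and several lying at common fragile sites, out of 27470 genes in the table of the series. They were chosen by gene span, from a proposal made with their response to cisplatin (CDDP) in these same libraries already known, so the measured CDDP comparisons chose the members too. Member values and counts from comparisons that hold CDDP are therefore descriptions, and since the other comparisons share their libraries, no p-value is given for a member. Transcripts were measured in bulk in a pair of triple-negative breast cancer (TNBC) lines, SUM1315, which carries a BRCA1 mutation, and MDA-MB-468, which is wild type for BRCA1. The study asked how olaparib, an inhibitor of the repair enzyme PARP1, and resistance to it bear on the response to CDDP, a platinum drug that crosslinks DNA. Each line gave 9 conditions of 3 libraries, which makes 54 libraries in 18 conditions.

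Parental SUM1315 cells were left untreated or were given 8 µM olaparib, 2 or 4 µM CDDP, or olaparib with either CDDP dose. Parental MDA-MB-468 cells had the same design with 3 µM olaparib and 1 or 2.5 µM CDDP. Olaparib-resistant (OlaR) cells were grown in 25 µM olaparib for SUM1315 and 15 µM for MDA-MB-468, alone or with the CDDP doses of their parental line. OlaR cells were raised in stepwise olaparib doses and stayed in olaparib in every library, so no drug-free OlaR group exists, and the lines differ in dose as well as genotype. For the higher MDA-MB-468 dose, the series design text gives 2 µM and the sample titles, followed here, 2.5 µM. Parental SUM1315 libraries held 4977284 to 7540920 reads (median 6173974) and OlaR SUM1315 libraries 3446613 to 4665505 (median 3900438). Parental MDA-MB-468 libraries held 5574767 to 9268162 reads (median 7331369) and OlaR MDA-MB-468 libraries 2070301 to 4676284 (median 4455837). Reads are PCR copies without molecular identifiers, so any limit from low counts covers counting error only.

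The reads come from the 3′ ends of transcripts, and no label states the unit of the values. They are read here as counts adjusted to a common library size of 5585170 within each condition, since that calculation from whole reads gave all of them back. Values are compared between conditions of 1 gene and not between genes. Among epithelial or basal genes, untreated EPCAM read 3067, 2948 and 3026 in MDA-MB-468 and 0, 0.0055 and 2.05 in SUM1315. Untreated means of KRT5, KRT18, KRT19, CDH1 and EGFR were also higher in MDA-MB-468. KRT17 went the other way, at 1534 in SUM1315 and 252.5 in MDA-MB-468. Of the receptors that define TNBC by their absence, PGR averaged 2.00 in untreated SUM1315 and 0 in MDA-MB-468, while ESR1 averaged 11.4 and 63.4 and ERBB2 22.5 and 32.1.

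RNA polymerase II must copy a whole gene before a 3′ end is made, and on a very long gene that journey takes hours. A bulky lesion such as a platinum crosslink on the template strand stalls the polymerase until transcription-coupled repair removes it. Common fragile sites are regions that break when replication is slowed, and they lie mostly inside such long genes, where late replication and transcription meet.

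Member genes ran from 500047 bases (AFF2, just inside the limit on span) to 2241933 bases (DMD). The median member spanned 835900 bases against 27730 over 18981 protein-coding genes of the table, and its longest intron covered 221000 bases against 7771. Introns made up a median 99.01% of a member and 87.17% of a coding gene, and GC content was 37.94% against 45.15%. The shortest coding transcript of a member had a median span of 99570 bases. Sequences of 4 members are given on GRCh38 (hg38): the first 30 bases of the longest intron, with the GT of the splice donor in capitals, and the last 30 bases of the main transcript, with the polyadenylation hexamer AATAAA or ATTAAA in capitals. Each runs 5′ to 3′ on the strand of its gene.

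IMMP2L begins its longest intron, 523672 bases, at chr7:111487208-111487237 on the minus strand and its main transcript ends at chr7:110662644-110662673. EXOC4 begins a 187183-base intron at chr7:133630142-133630171 on the plus strand and its main transcript ends at chr7:134065732-134065761. LPP begins a 116135-base intron at chr3:188225528-188225557 on the plus strand and its main transcript ends at chr3:188890642-188890671. FOXP1 begins a 134181-base intron at chr3:71493396-71493425 on the minus strand and its main transcript ends at chr3:70954708-70954737, a window without either hexamer.

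IMMP2L intron start: GTaagtaactcagaagcatactatatttgt
IMMP2L transcript end: tggataatggAATAAAttccctgcatctaa
EXOC4 intron start: GTaagtcaagtgctatgatatacttactga
EXOC4 transcript end: agaATTAAAaagtgttttgagaagcttaaa
LPP intron start: GTgagtcccgcacacaaaaagaacacattt
LPP transcript end: agaaatccAATAAActtcttattacattta
FOXP1 intron start: GTgagtgaatgaatgtttgtgattattcat
FOXP1 transcript end: aaatgctggttgttcacgctggtagtaaaa

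Every member had reads in at least 1 library of each line. SUM1315 gave 30 members reads in all 27 libraries, and 19 of the 41 had an untreated mean of at least 100. MDA-MB-468 gave 28 members reads in all 27 libraries, and 13 had an untreated mean of at least 100. A filter, a value of 10 or more in at least 3 libraries of the line, kept 37 members among 13133 SUM1315 genes and 32 among 13012 MDA-MB-468 genes, and member counts refer to these. Fold changes are of adjusted read count + 1 on the log2 scale, ± standard error, with 3 libraries a group, fitted with limma in each line, and are the values given as distances from a reference. A gene counted as lower or higher at a false discovery rate of 5% over all tested genes and at least a 2-fold change. Percentages of all genes refer to this threshold. Counts of members at an unadjusted p under 0.05 have no such share beside them, so they are descriptions and are not read as an excess. The p-values behind these counts measure the spread between these libraries, since nothing in the labels says that replicates are separate cultures. Between SUM1315 replicates, the chi-square per degree of freedom was 15.2 and 20.1 for untreated replicate 3, 8.72 and 8.73 for olaparib replicate 3 and 9.93 and 22.1 for 2 µM CDDP replicate 3, against 3.59, 2.90 and 7.28 for the other pair of each group. In bulk samples, fewer cells that make a transcript and less of it per cell cannot be told apart.

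In SUM1315, 20 of 37 members were lower with 2 µM CDDP than untreated, where 3.38% of all tested genes were, with a median log2 fold change of -1.10; without untreated or 2 µM replicate 3 the count was 16. At 4 µM the count was 30 lower (8.16% of all genes) and 1 higher, PDE4D (7.24%), with a median of -2.27, and 29 were lower without untreated replicate 3. Beside olaparib, limma called 0 members lower at 2 µM (0.183% of all genes), with 10 at an unadjusted p under 0.05, of which 8 were lower, and 1 each by edgeR and DESeq2; the median was -0.28. With olaparib and 4 µM CDDP the count against olaparib alone was 12 (0.472%), at a median of -0.65, and 11 without olaparib replicate 3. OlaR SUM1315 cells had 7 members lower at 2 µM (0.343%), median -0.80, and 26 lower at 4 µM (2.89%) with 1 higher, ADGRL3 (0.929%), median -1.79. The summed member values were 7606, 7645 and 7340 untreated against 2819, 2701 and 2847 at 4 µM. Olaparib sums were 6512, 6392 and 6441 without CDDP and 4566, 4754 and 4474 with 4 µM, and OlaR sums were 5356, 5344 and 5273 against 2504, 2477 and 2436. Without FOXP1 these sums were 6620, 6683 and 6274 against 1502, 1503 and 1596, with olaparib 5556, 5447 and 5458 against 3449, 3636 and 3378, and in OlaR cells 4360, 4344 and 4347 against 1553, 1433 and 1475. Some cell-type markers also moved between untreated and 4 µM means, and their part was not tested. KRT17 went from 1534 to 649.5 and EGFR from 954.8 to 754.8, while KRT18, also epithelial or basal, went from 354.4 to 540.7. Of the mesenchymal-like genes, FN1 went from 2000 to 1135 and VIM, ZEB1 and CDH2 were also lower, while SPARC went from 1896 to 2933. The neuronal marker SNAP25 went from 36.58 to 271.7.

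Of the 32 MDA-MB-468 members, 4 were lower at 1 µM CDDP (0.699% of all genes), namely FHIT, IMMP2L, TENM1 and SHANK2, with a median of -0.40. At 2.5 µM, 12 members were lower (0.953%), median -0.74. With olaparib, 0 members were called lower by limma at 1 µM (0.0307%), with 3 lower at an unadjusted p under 0.05 and 0 by edgeR and by DESeq2, and 8 at 2.5 µM (0.638%), at medians of -0.21 and -0.54. OlaR MDA-MB-468 cells had 2 members lower at 1 µM (0.169%), THSD4 and PRKCE, median -0.58, and 22 at 2.5 µM (1.65%), median -1.60. The summed values were 3569, 3429 and 3471 untreated against 2087, 2035 and 2115 at 2.5 µM, and 3218, 3513 and 3302 with olaparib against 2380, 2417 and 2426. OlaR sums went from 3645, 3623 and 3709 to 1519, 1584 and 1562.

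**Figure D1:**
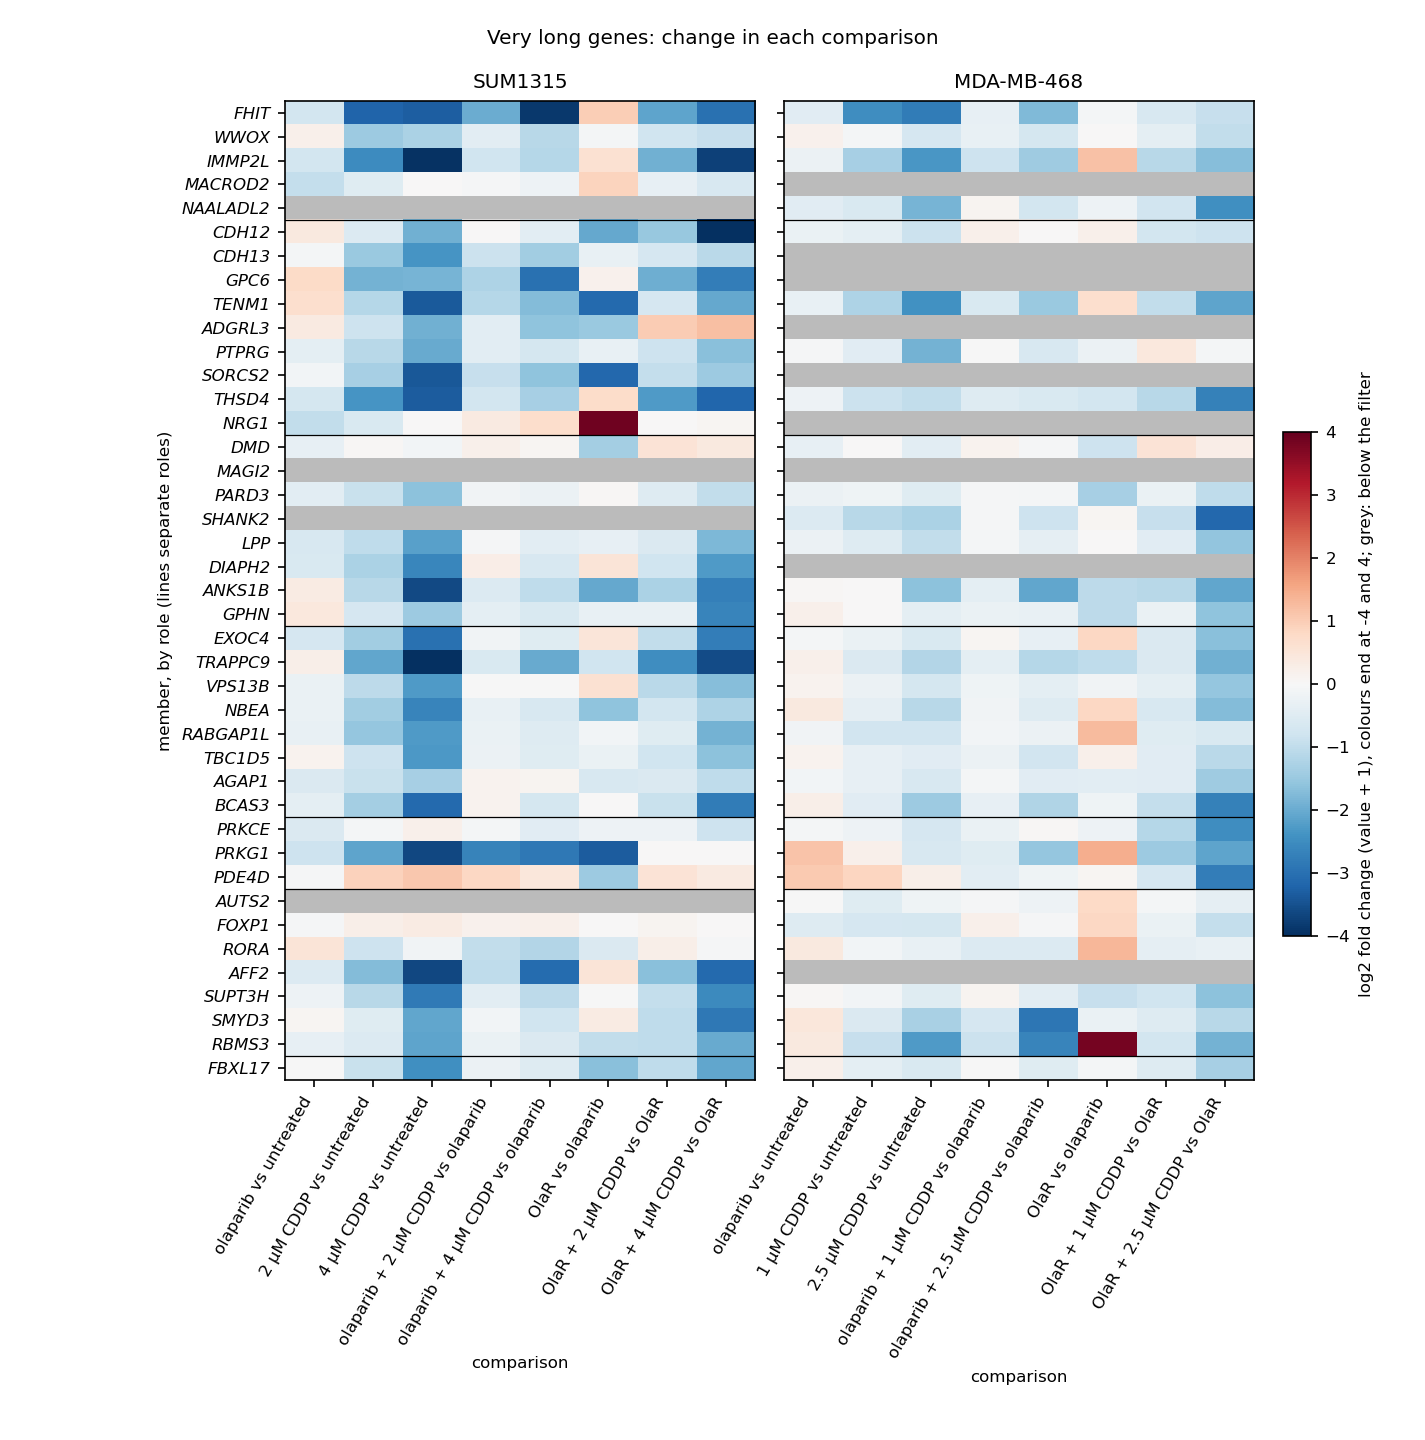
Log2 fold change of each member (horizontal bands, by role) in each comparison (columns) of either line, on the log2(value + 1) scale with colours ending at -4 and 4. Grey marks members below the filter.

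Retention, the mean of a condition as a percent of the mean without CDDP, had a member median of 46.4% at 2 µM and 20.2% at 4 µM in SUM1315, against 100% and 98.6% over all genes. Comparisons at both doses share their reference libraries. Placing groups without reads at a bound of 3 reads over the group left the member medians of log2 fold changes as given, interactions aside. Beside olaparib the SUM1315 retention median was 82.2% and 63.8%, and in OlaR cells 57.2% and 28.0%. MDA-MB-468 members kept a median of 75.2% and 56.7% with CDDP, 87.5% and 70.5% beside olaparib, and 67% and 33.4% in OlaR cells. At 4 µM in SUM1315, 24 of 37 members were below 25% of untreated and 7 were at or above 80%; beside olaparib 5 were below 25% and 8 at or above 80%. Of all genes with a reference mean of at least 10, 280 of 12042 were below 25% at 4 µM and 8225 at or above 80%, and beside olaparib 17 and 9866 of 11883. Olaparib alone left SUM1315 members at a median 82.6% of untreated and MDA-MB-468 members at 97.3%.

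**Figure D2:**
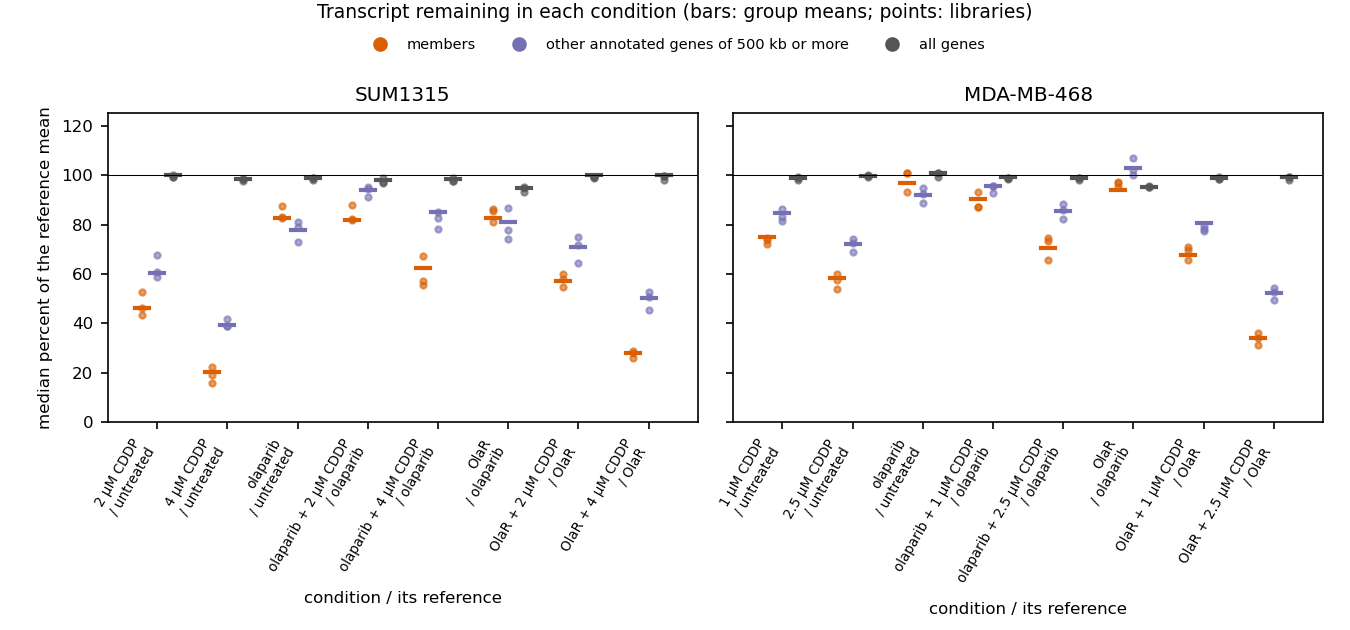
Median percent of the reference mean (vertical axis) for members, other annotated genes of 500 kb or more and all genes with a reference mean of at least 10, by condition and reference (horizontal axis). Bars come from group means and points from single libraries.

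Fragile-site genes and small enzymes follow. FHIT, a hydrolase of diadenosine polyphosphates, sits at a fragile site on the short arm of its chromosome. FHIT read 13.04, 31.0 and 30.9 in untreated SUM1315 libraries, 1.67, 1.58 and 1.68 at 2 µM CDDP and 1.05, 0 and 6.44 at 4 µM. FHIT with olaparib alone read 13.02, 7.21 and 25.0, 8.74, 0.05 and 3.54 with 2 µM CDDP and 0 in all 3 with 4 µM. FHIT in OlaR cells read 21.6, 41.7 and 23.5 alone, 9.66, 4.10 and 4.45 at 2 µM and 1.39, 3.92 and 3.19 at 4 µM. FHIT was below every reference library at 4 µM, and with olaparib and 4 µM it had no read in any of 3 libraries. WWOX, a short-chain oxidoreductase with WW domains, sits at another such site. In SUM1315, WWOX values were 57.2, 57.0 and 89.8 untreated, 24.4, 20.6 and 26.3 at 2 µM CDDP and 21.6, 32.2 and 27.4 at 4 µM. Beside olaparib, WWOX was at 76.6, 69.6 and 82.9 without CDDP, 53.4, 91.1 and 37.8 with 2 µM and 24.8, 40.8 and 41.6 with 4 µM. OlaR libraries gave WWOX values of 65.1, 90.4 and 65.2, 32.8, 53.0 and 40.6 with 2 µM and 38.5, 34.4 and 40.0 with 4 µM. WWOX at 4 µM lay below all reference libraries in the 3 arms, with log2 fold changes of -1.28 ± 0.29 from untreated, -1.11 ± 0.29 from olaparib and -0.93 ± 0.29 from OlaR. For WWOX in MDA-MB-468, untreated libraries gave 259.7, 227 and 246, 1 µM CDDP gave 234, 220.0 and 232, and 2.5 µM gave 165, 149.5 and 141. Olaparib-treated WWOX values were 264, 284 and 280.3, 186, 269 and 227 with 1 µM CDDP and 186, 156 and 166 with 2.5 µM. WWOX in OlaR cells read 268, 243 and 320.1 alone, 200.1, 224 and 201 at 1 µM and 129.6, 147 and 141 at 2.5 µM. WWOX in MDA-MB-468 overlapped untreated at 1 µM and lay below it at 2.5 µM (-0.68 ± 0.12), with -0.71 ± 0.12 beside olaparib and -0.98 ± 0.12 in OlaR cells. IMMP2L, a subunit of the peptidase of the mitochondrial inner membrane, has the longest intron shown above. IMMP2L read 151, 149.978 and 113 in untreated SUM1315 libraries, 30.7, 21.5 and 18.2 at 2 µM CDDP and 4.16, 11.1 and 10.7 at 4 µM. Beside olaparib, IMMP2L was at 74.6, 93.4 and 76.9 without CDDP, 37.7, 47.4 and 54.9 with 2 µM and 37.7, 32.3 and 38.8 with 4 µM. OlaR libraries gave IMMP2L values of 130.3, 129.6 and 118, 29.1, 26.5 and 45.6 with 2 µM and 16.7, 3.53 and 9.85 with 4 µM. IMMP2L at 4 µM was far below untreated (-3.94 ± 0.36) and OlaR (-3.73 ± 0.36), and nearer its reference beside olaparib (-1.15 ± 0.36), with no overlap in any arm. In MDA-MB-468, IMMP2L values were 34.3, 24.0 and 39.5 untreated, 8.52, 13.5 and 15.8 at 1 µM CDDP and 4.70, 2.91 and 11.4 at 2.5 µM. Olaparib-treated IMMP2L values were 20.7, 24.3 and 37.9, 16.5, 11.5 and 15.9 with 1 µM CDDP and 7.26, 8.49 and 13.7 with 2.5 µM. IMMP2L in OlaR cells read 57.6, 74.0 and 53.9 alone, 25.4, 39.7 and 21.6 at 1 µM and 14.5, 18.5 and 21.7 at 2.5 µM. IMMP2L in MDA-MB-468 also stood below its reference in every arm at 2.5 µM, at -2.34 ± 0.37, -1.41 ± 0.37 and -1.71 ± 0.37.

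NAALADL2 is a membrane protein related to glutamate carboxypeptidase. For NAALADL2 in MDA-MB-468, untreated libraries gave 27.4, 34.6 and 49.5, 1 µM CDDP gave 24.8, 20.1 and 26.1, and 2.5 µM gave 5.84, 15.0 and 8.96. NAALADL2 with olaparib alone read 27.8, 34.8 and 18.7, 29.1, 18.7 and 42.9 with 1 µM CDDP and 19.98, 10.6 and 17.6 with 2.5 µM. OlaR libraries gave NAALADL2 values of 23.9, 18.8 and 26.4, 13.2, 16.1 and 9.93 with 1 µM and 3.14, 2.57 and 4.59 with 2.5 µM. NAALADL2 at 2.5 µM was below untreated (-1.85 ± 0.38) and OlaR (-2.45 ± 0.38), while its values beside olaparib overlapped those without CDDP. In SUM1315, NAALADL2 stayed under the filter, with a highest value of 11.3 and reads in 10 of 27 libraries. MACROD2, which removes ADP-ribose from proteins, peaked at 16.4 in SUM1315, with overlapping values in all CDDP comparisons of that line, and had reads in 4 of 27 MDA-MB-468 libraries. FHIT in MDA-MB-468 read 21.2, 12.8 and 23.1 untreated and 1.31, 1.56 and 2.74 at 2.5 µM, below all 3.

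Adhesion, matrix and surface proteins follow. CDH12 is a classical cadherin of neurons. CDH12 read 88.4, 62.2 and 77.6 in untreated SUM1315 libraries, 42.3, 52.1 and 62.2 at 2 µM CDDP and 11.4, 21.99 and 27.8 at 4 µM. Olaparib-treated CDH12 values were 92.4, 92.6 and 115, 94.0, 101 and 105 with 2 µM CDDP and 72.5, 72.1 and 78.4 with 4 µM. CDH12 in OlaR cells read 14.4, 25.9 and 34.6 alone, 2.69, 22.9 and 6.28 at 2 µM and 1.18, 0.033 and 0.049 at 4 µM. CDH12 at 4 µM lay below olaparib (-0.42 ± 0.43) and untreated (-1.92 ± 0.43) without overlap, and OlaR cells at 4 µM were near 0. In MDA-MB-468, CDH12 values were 55.5, 60.1 and 78.6 untreated, 40.4, 51.9 and 53.9 at 1 µM CDDP and 47.5, 31.0 and 28.4 at 2.5 µM. CDH12 with olaparib alone read 53.0, 60.6 and 47.1, 76.1, 53.8 and 55.6 with 1 µM CDDP and 45.5, 58.7 and 60.4 with 2.5 µM. OlaR libraries gave CDH12 values of 54.2, 74.0 and 56.1, 43.8, 35.9 and 30.3 with 1 µM and 31.1, 32.3 and 39.4 with 2.5 µM. CDH12 in MDA-MB-468 overlapped its olaparib reference at both doses and lay below untreated and OlaR at 2.5 µM (-0.86 ± 0.23 and -0.82 ± 0.23). CDH13 is a cadherin held by a lipid anchor. For CDH13 in SUM1315, untreated libraries gave 653, 689 and 496, 2 µM CDDP gave 227, 246 and 182, and 4 µM gave 121, 100.2 and 136. Beside olaparib, CDH13 was at 536, 601 and 575 without CDDP, 315, 364 and 274 with 2 µM and 222, 201 and 233 with 4 µM. CDH13 in OlaR cells read 471, 460.1 and 460.2 alone, 278, 261 and 340.0 at 2 µM and 259.7, 193 and 211 at 4 µM. CDH13 was below its reference at both doses in every SUM1315 arm, with -2.35 ± 0.15 at 4 µM, -1.38 ± 0.15 beside olaparib and -1.07 ± 0.15 in OlaR cells. In MDA-MB-468, CDH13 peaked at 1.55, with reads in 5 libraries.

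TENM1 is a teneurin, a large adhesion receptor. TENM1 read 48.1, 65.2 and 75.4 in untreated SUM1315 libraries, 24.9, 40.2 and 20.6 at 2 µM CDDP and 7.17, 3.58 and 5.29 at 4 µM. TENM1 with olaparib alone read 102, 90.9 and 106, 51.7, 37.0 and 47.5 with 2 µM CDDP and 31.8, 28.7 and 26.9 with 4 µM. OlaR libraries gave TENM1 values of 8.44, 7.91 and 17.6, 8.54, 6.46 and 4.51 with 2 µM and 0.12, 2.69 and 4.33 with 4 µM. TENM1 was low in all OlaR libraries, and at 4 µM it lay below untreated (-3.35 ± 0.43) and olaparib (-1.74 ± 0.43). In MDA-MB-468, TENM1 values were 153, 149 and 166 untreated, 73.0, 43.9 and 85.6 at 1 µM CDDP and 28.2, 38.6 and 21.0 at 2.5 µM. Beside olaparib, TENM1 was at 130.1, 139.7 and 113 without CDDP, 74.6, 84.3 and 90.4 with 1 µM and 45.9, 41.9 and 46.0 with 2.5 µM. TENM1 in OlaR cells read 217, 200.1 and 192 alone, 101, 103 and 105 at 1 µM and 42.0, 43.5 and 54.2 at 2.5 µM. TENM1 in MDA-MB-468 lay below its reference at both doses in all 3 arms, without overlap, with -2.42 ± 0.19, -1.49 ± 0.19 and -2.11 ± 0.19 at 2.5 µM. ADGRL3 is a latrophilin, an adhesion receptor coupled to G proteins. For ADGRL3 in SUM1315, untreated libraries gave 34.4, 28.0 and 22.8, 2 µM CDDP gave 12.3, 25.7 and 11.5, and 4 µM gave 6.18, 4.46 and 10.8. Olaparib-treated ADGRL3 values were 44.1, 45.6 and 23.0, 33.6, 27.4 and 20.3 with 2 µM CDDP and 20.9, 6.44 and 9.80 with 4 µM. OlaR libraries gave ADGRL3 values of 11.3, 20.4 and 7.57, 21.6, 26.9 and 27.5 with 2 µM and 28.7, 26.2 and 33.2 with 4 µM. ADGRL3 ran both ways: 4 µM lay below untreated (-1.91 ± 0.42) and olaparib (-1.61 ± 0.42), and above OlaR without CDDP (1.20 ± 0.42). In MDA-MB-468, ADGRL3 had reads in 2 of 27 libraries.

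PTPRG is a receptor tyrosine phosphatase. PTPRG read 189, 210.1 and 219 in untreated SUM1315 libraries, 98.4, 97.99 and 86.7 at 2 µM CDDP and 46.3, 61.6 and 43.9 at 4 µM. Beside olaparib, PTPRG was at 179, 152 and 141 without CDDP, 125.2, 91.9 and 135 with 2 µM and 80.4, 109 and 101 with 4 µM. PTPRG in OlaR cells read 99.7, 142 and 145 alone, 71.6, 63.7 and 79.8 at 2 µM and 44.4, 30.9 and 43.0 at 4 µM. PTPRG lay below its reference at both doses in every arm, at -2.02 ± 0.20, -0.70 ± 0.20 and -1.68 ± 0.20 at 4 µM. In MDA-MB-468, PTPRG read 16.7, 17.1 and 16.8 untreated and 4.305, 4.03 and 3.11 at 2.5 µM, with 8.80, 12.4 and 9.09 beside olaparib. SORCS2 is a sorting receptor for neurotrophin precursors. In SUM1315, SORCS2 values were 136, 209.8 and 167 untreated, 73.2, 92.8 and 41.9 at 2 µM CDDP and 20.5, 12.7 and 13.1 at 4 µM. Olaparib-treated SORCS2 values were 197, 172 and 114, 84.7, 77.99 and 83.2 with 2 µM CDDP and 53.6, 38.7 and 62.5 with 4 µM. OlaR libraries gave SORCS2 values of 10.8, 14.9 and 29.3, 9.10, 15.9 and 3.60 with 2 µM and 5.05, 4.29 and 7.60 with 4 µM. SORCS2 at 4 µM lay -3.39 ± 0.38 from untreated and -1.61 ± 0.38 from olaparib, without overlap, and every OlaR library was low. In MDA-MB-468, SORCS2 peaked at 8.19, under the filter. GPC6, a glypican of the cell surface, peaked at 18.4 in SUM1315 with olaparib and at 7.56 in MDA-MB-468, where it was under the filter.

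THSD4 is a matrix protein that binds fibrillin microfibrils. For THSD4 in SUM1315, untreated libraries gave 108, 103 and 85.96, 2 µM CDDP gave 25.6, 17.5 and 14.0, and 4 µM gave 11.3, 14.8 and 4.14. THSD4 with olaparib alone read 77.9, 53.3 and 53.0, 37.3, 52.4 and 23.7 with 2 µM CDDP and 25.8, 19.0 and 25.3 with 4 µM. THSD4 in OlaR cells read 122, 95.01 and 91.0 alone, 31.0, 14.8 and 18.5 at 2 µM and 15.7, 7.34 and 10.03 at 4 µM. THSD4 was well below untreated and OlaR at 4 µM (-3.32 ± 0.37 and -3.16 ± 0.37) and less far below olaparib (-1.34 ± 0.37), with no overlap. THSD4 read 111, 91.4 and 90.9 in untreated MDA-MB-468 libraries, 54.7, 54.8 and 51.0 at 1 µM CDDP and 48.1, 58.5 and 41.4 at 2.5 µM. Olaparib-treated THSD4 values were 64.9, 118 and 78.5, 66.8, 62.4 and 49.3 with 1 µM CDDP and 54.0, 63.2 and 48.1 with 2.5 µM. OlaR libraries gave THSD4 values of 64.9, 41.2 and 48.7, 18.3, 25.8 and 26.1 with 1 µM and 3.81, 10.8 and 7.88 with 2.5 µM. THSD4 in MDA-MB-468 was lowest in OlaR cells at 2.5 µM (-2.70 ± 0.26), against -0.98 ± 0.26 without olaparib and -0.61 ± 0.26 with it. NRG1 is the ligand of the receptors ERBB3 and ERBB4. In SUM1315, NRG1 values were 40.0, 16.7 and 29.99 untreated, 8.52, 35.01 and 17.5 at 2 µM CDDP and 26.7, 23.6 and 32.0 at 4 µM. NRG1 with olaparib alone read 12.1, 15.5 and 12.0, 12.7, 23.0 and 17.0 with 2 µM CDDP and 18.9, 28.5 and 19.7 with 4 µM. NRG1 in OlaR cells read 237, 191 and 194 alone, 181, 252 and 196 at 2 µM and 194, 216 and 251 at 4 µM. NRG1 at 4 µM overlapped untreated (0 ± 0.34) and OlaR (0.08 ± 0.34) and lay above olaparib (0.70 ± 0.34), and all OlaR libraries exceeded all parental ones. In MDA-MB-468, NRG1 peaked at 2.35, with reads in 4 libraries.

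DMD, dystrophin, ties actin to the membrane and is the longest member. For DMD in SUM1315, untreated libraries gave 56.4, 74.4 and 59.0, 2 µM CDDP gave 67.2, 54.7 and 73.9, and 4 µM gave 58.6, 64.2 and 51.9. Beside olaparib, DMD was at 65.7, 43.95 and 43.97 without CDDP, 54.4, 60.0008 and 59.9998 with 2 µM and 55.6, 66.9 and 40.99 with 4 µM. OlaR libraries gave DMD values of 17.5, 17.7 and 21.8, 35.02, 40.1 and 15.7 with 2 µM and 21.5, 29.3 and 24.5 with 4 µM. DMD overlapped its reference at both doses in all 3 SUM1315 arms, with -0.11 ± 0.28 at 4 µM. DMD read 90.9, 68.2 and 77.3 in untreated MDA-MB-468 libraries, 79.3, 74.9 and 84.2 at 1 µM CDDP and 49.5, 70.7 and 56.5 at 2.5 µM. DMD with olaparib alone read 55.6, 115 and 36.9, 80.6, 76.0 and 53.2 with 1 µM CDDP and 51.1, 65.5 and 63.6 with 2.5 µM. DMD in OlaR cells read 33.5, 34.4 and 35.1 alone, 39.0, 60.8 and 56.3 at 1 µM and 36.1, 45.4 and 41.9 at 2.5 µM. DMD in MDA-MB-468 overlapped untreated at 2.5 µM (-0.42 ± 0.25), and its OlaR values with CDDP lay above those without (0.25 ± 0.25). PARD3 organizes cell polarity. In SUM1315, PARD3 values were 459, 385 and 414 untreated, 229, 251 and 195 at 2 µM CDDP and 147, 111 and 143 at 4 µM. Beside olaparib, PARD3 was at 304, 270.2 and 371 without CDDP, 284, 294 and 278 with 2 µM and 240.3, 314 and 252 with 4 µM. OlaR libraries gave PARD3 values of 321, 361 and 289.8, 184, 271 and 231 with 2 µM and 176, 163 and 155 with 4 µM. PARD3 beside olaparib overlapped at 4 µM (-0.23 ± 0.15), while 4 µM alone (-1.65 ± 0.15) and OlaR with 4 µM (-0.97 ± 0.15) lay below their references. For PARD3 in MDA-MB-468, untreated libraries gave 399, 403 and 401, 1 µM CDDP gave 401, 331 and 348, and 2.5 µM gave 319, 254 and 294. Olaparib-treated PARD3 values were 337, 351 and 323, 303, 352 and 324 with 1 µM CDDP and 337, 304 and 325 with 2.5 µM. PARD3 in OlaR cells read 132, 131 and 142 alone, 118, 101 and 116 at 1 µM and 68.8, 79.6 and 51.0 at 2.5 µM. PARD3 in MDA-MB-468 at 2.5 µM overlapped beside olaparib (-0.07 ± 0.12) and lay below untreated (-0.48 ± 0.12) and OlaR (-1.03 ± 0.12).

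SHANK2 is a scaffold of synapses. SHANK2 read 158, 137 and 157 in untreated MDA-MB-468 libraries, 63.9, 80.8 and 66.5 at 1 µM CDDP and 61.7, 63.7 and 59.1 at 2.5 µM. Beside olaparib, SHANK2 was at 96.7, 127 and 87.8 without CDDP, 101, 85.9 and 108 with 1 µM and 44.5, 67.4 and 61.1 with 2.5 µM. OlaR libraries gave SHANK2 values of 106, 113 and 103, 59.6, 50.2 and 60.1 with 1 µM and 17.2, 8.96 and 9.38 with 2.5 µM. SHANK2 at 2.5 µM was lowest in OlaR cells (-3.13 ± 0.20), against -1.28 ± 0.20 from untreated and -0.84 ± 0.20 from olaparib. In SUM1315, SHANK2 peaked at 9.11 and was under the filter. LPP is a LIM-domain protein of focal adhesions. In SUM1315, LPP values were 935, 934 and 812 untreated, 441, 485 and 394 at 2 µM CDDP and 168, 204 and 221 at 4 µM. Olaparib-treated LPP values were 569.9, 557 and 579.6, 520.1, 573 and 549 with 2 µM CDDP and 428, 427 and 409 with 4 µM. LPP in OlaR cells read 507, 417 and 448 alone, 311, 289 and 317 at 2 µM and 146, 128 and 119.7 at 4 µM. LPP at 4 µM lay -2.18 ± 0.11 from untreated and -1.79 ± 0.11 from OlaR, and only -0.43 ± 0.11 from olaparib, all without overlap. For LPP in MDA-MB-468, untreated libraries gave 206, 210.4 and 195, 1 µM CDDP gave 137, 146 and 140.3, and 2.5 µM gave 134, 75.0 and 109. LPP with olaparib alone read 191, 166 and 163, 134, 163 and 204 with 1 µM CDDP and 142, 134 and 128 with 2.5 µM. OlaR libraries gave LPP values of 188, 172 and 166, 152, 115 and 123 with 1 µM and 52.9, 62.8 and 58.0 with 2.5 µM. LPP in MDA-MB-468 showed -0.97 ± 0.15 at 2.5 µM, -0.36 ± 0.15 beside olaparib and -1.59 ± 0.15 in OlaR cells, with no overlap. DIAPH2 is a formin that extends actin filaments. DIAPH2 read 114, 121 and 135 in untreated SUM1315 libraries, 45.0, 51.3 and 56.0 at 2 µM CDDP and 26.6, 16.3 and 16.6 at 4 µM. Olaparib-treated DIAPH2 values were 98.4, 65.0 and 78.9, 110.3, 79.2 and 103 with 2 µM CDDP and 44.7, 60.5 and 49.4 with 4 µM. DIAPH2 in OlaR cells read 107, 123 and 112 alone, 78.7, 51.3 and 68.0 at 2 µM and 29.3, 23.2 and 17.5 at 4 µM. DIAPH2 overlapped olaparib at 2 µM and lay below it at 4 µM (-0.63 ± 0.24), against -2.61 ± 0.24 and -2.27 ± 0.24 in the other arms. In MDA-MB-468, DIAPH2 peaked at 3.26.

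ANKS1B is an ankyrin-repeat protein that binds the amyloid precursor. In SUM1315, ANKS1B values were 139.6, 108 and 129 untreated, 54.4, 66.3 and 53.8 at 2 µM CDDP and 3.16, 13.8 and 17.1 at 4 µM. ANKS1B with olaparib alone read 154, 172 and 145, 97.5, 115 and 106 with 2 µM CDDP and 70.5, 96.7 and 66.3 with 4 µM. OlaR libraries gave ANKS1B values of 40.0, 29.6 and 42.2, 18.7, 10.8 and 15.3 with 2 µM and 2.73, 4.24 and 8.74 with 4 µM. ANKS1B kept more beside olaparib (-1.02 ± 0.36) than without it at 4 µM (-3.60 ± 0.36), and OlaR cells were low throughout. In MDA-MB-468, ANKS1B read 23.2, 8.23 and 19.3 untreated and 6.70, 3.07 and 3.75 at 2.5 µM, below all 3. GPHN, gephyrin, anchors inhibitory receptors and makes molybdenum cofactor. For GPHN in SUM1315, untreated libraries gave 80.1, 70.4 and 73.5, 2 µM CDDP gave 45.2, 49.0 and 46.4, and 4 µM gave 14.5, 39.7 and 32.0. Beside olaparib, GPHN was at 109, 103 and 87.9 without CDDP, 73.6, 75.8 and 80.6 with 2 µM and 59.6, 84.3 and 55.5 with 4 µM. GPHN in OlaR cells read 86.6, 69.9 and 89.9 alone, 61.8, 74.0 and 63.0 at 2 µM and 9.09, 8.76 and 21.96 at 4 µM. GPHN was lowest in OlaR cells at 4 µM (-2.65 ± 0.29), against -1.46 ± 0.29 from untreated and -0.60 ± 0.29 from olaparib. GPHN read 101, 75.0 and 98.4 in untreated MDA-MB-468 libraries, 77.6, 106 and 95.4 at 1 µM CDDP and 60.9, 67.4 and 80.7 at 2.5 µM. GPHN with olaparib alone read 88.02, 100.5 and 127, 72.6, 94.9 and 91.9 with 1 µM CDDP and 92.2, 79.2 and 81.7 with 2.5 µM. OlaR libraries gave GPHN values of 52.4, 59.5 and 38.4, 50.9, 26.5 and 50.1 with 1 µM and 7.72, 21.8 and 21.3 with 2.5 µM. GPHN in MDA-MB-468 overlapped untreated and olaparib at 2.5 µM and lay below its reference only in OlaR cells among the 3 arms at that dose (-1.61 ± 0.25). MAGI2, a membrane guanylate kinase scaffold, peaked at 4.53 in SUM1315 and 10.7 in MDA-MB-468, under the filter in both.

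EXOC4 is a subunit of the exocyst, which tethers vesicles. In SUM1315, EXOC4 values were 379, 390.2 and 427 untreated, 179, 156 and 123 at 2 µM CDDP and 51.4, 56.0 and 41.2 at 4 µM. Beside olaparib, EXOC4 was at 243, 238 and 273 without CDDP, 208, 261 and 213 with 2 µM and 185, 164 and 195 with 4 µM. EXOC4 in OlaR cells read 386, 349 and 318 alone, 176, 185 and 170.2 at 2 µM and 74.2, 33.2 and 50.7 at 4 µM. EXOC4 at 4 µM lay -2.99 ± 0.19 from untreated and -2.78 ± 0.19 from OlaR against -0.47 ± 0.19 from olaparib, without overlap in any arm. For EXOC4 in MDA-MB-468, untreated libraries gave 151, 200.1 and 172, 1 µM CDDP gave 178, 133 and 125.031, and 2.5 µM gave 107, 113 and 121. Olaparib-treated EXOC4 values were 158, 148 and 189, 198, 164 and 164 with 1 µM CDDP and 133, 122 and 141 with 2.5 µM. OlaR libraries gave EXOC4 values of 279, 296 and 297, 192, 177 and 216 with 1 µM and 82.5, 116 and 76.7 with 2.5 µM. EXOC4 in MDA-MB-468 lay -0.61 ± 0.14 from untreated, -0.32 ± 0.14 from olaparib and -1.67 ± 0.14 from OlaR at 2.5 µM. TRAPPC9 is a subunit of a Golgi tethering complex. TRAPPC9 read 129, 109.8 and 109.7 in untreated SUM1315 libraries, 40.2, 28.9 and 16.2 at 2 µM CDDP and 5.11, 0.83 and 3.55 at 4 µM. Beside olaparib, TRAPPC9 was at 126, 127 and 161 without CDDP, 84.9, 102 and 80.3 with 2 µM and 26.8, 44.4 and 30.5 with 4 µM. TRAPPC9 in OlaR cells read 75.4, 69.5 and 93.7 alone, 22.2, 7.18 and 14.0 at 2 µM and 2.80, 6.72 and 8.97 at 4 µM. TRAPPC9 was under 10 in every library with 4 µM CDDP except those with olaparib added to parental cells, and beside olaparib it lay -2.02 ± 0.40 from olaparib alone. In MDA-MB-468, TRAPPC9 values were 163, 163 and 148 untreated, 115, 94.1 and 106 at 1 µM CDDP and 69.2, 51.1 and 95.1 at 2.5 µM. Olaparib-treated TRAPPC9 values were 163, 200.5 and 184, 199.9, 134 and 98.7 with 1 µM CDDP and 80.3, 69.1 and 99.3 with 2.5 µM. OlaR libraries gave TRAPPC9 values of 89.6, 94.2 and 85.1, 66.6, 50.5 and 62.2 with 1 µM and 24.3, 21.2 and 23.5 with 2.5 µM. TRAPPC9 in MDA-MB-468 lay below each reference at 2.5 µM, at -1.17 ± 0.20, -1.14 ± 0.20 and -1.92 ± 0.20.

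VPS13B moves lipids at the Golgi. For VPS13B in SUM1315, untreated libraries gave 95.4, 82.8 and 85.9, 2 µM CDDP gave 38.2, 27.7 and 69.0, and 4 µM gave 16.5, 13.6 and 23.3. VPS13B with olaparib alone read 89.99, 57.2 and 75.9, 61.4, 69.6 and 85.4 with 2 µM CDDP and 58.6, 68.0 and 94.2 with 4 µM. VPS13B in OlaR cells read 104, 111 and 122 alone, 38.0, 59.99 and 64.2 at 2 µM and 38.2, 32.8 and 29.96 at 4 µM. VPS13B overlapped olaparib alone at both added doses (-0.02 ± 0.28 at 4 µM) and lay below untreated (-2.28 ± 0.28) and OlaR (-1.71 ± 0.28). VPS13B read 160.1, 159 and 162 in untreated MDA-MB-468 libraries, 127, 119.963 and 172 at 1 µM CDDP and 91.6, 107 and 98.4 at 2.5 µM. Olaparib-treated VPS13B values were 200.0, 177 and 159, 125.3, 151 and 204 with 1 µM CDDP and 131, 140.3 and 138 with 2.5 µM. OlaR libraries gave VPS13B values of 174, 161 and 148, 114, 139 and 116 with 1 µM and 53.8, 59.1 and 51.6 with 2.5 µM. VPS13B in MDA-MB-468 lay -0.70 ± 0.15, -0.38 ± 0.15 and -1.54 ± 0.15 from the 3 references at 2.5 µM, without overlap. NBEA, neurobeachin, directs membrane cargo. In SUM1315, NBEA values were 147, 143 and 192 untreated, 54.3, 59.3 and 66.2 at 2 µM CDDP and 30.8, 14.3 and 33.05 at 4 µM. NBEA with olaparib alone read 136, 134 and 128, 105, 109.5 and 109 with 2 µM CDDP and 78.4, 104 and 73.5 with 4 µM. NBEA in OlaR cells read 59.5, 45.0 and 28.3 alone, 15.5, 50.3 and 19.4 at 2 µM and 11.8, 23.7 and 19.2 at 4 µM. NBEA at 4 µM lay below untreated (-2.65 ± 0.33), olaparib (-0.65 ± 0.33) and OlaR (-1.23 ± 0.33). For NBEA in MDA-MB-468, untreated libraries gave 72.7, 87.8 and 71.1, 1 µM CDDP gave 57.4, 55.7 and 66.1, and 2.5 µM gave 34.7, 42.4 and 28.5. Beside olaparib, NBEA was at 85.0, 113 and 109 without CDDP, 71.6, 94.5 and 114 with 1 µM and 53.2, 81.4 and 78.9 with 2.5 µM. OlaR libraries gave NBEA values of 200.2, 175 and 174, 129.8, 112 and 107 with 1 µM and 59.2, 63.7 and 40.3 with 2.5 µM. NBEA in MDA-MB-468 was highest in OlaR cells without CDDP, and at 2.5 µM it lay -1.12 ± 0.20, -0.53 ± 0.20 and -1.75 ± 0.20 from the references.

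RABGAP1L is an activator of Rab GTP hydrolysis. RABGAP1L read 96.8, 116 and 106 in untreated SUM1315 libraries, 45.0, 39.5 and 25.6 at 2 µM CDDP and 28.7, 15.3 and 21.2 at 4 µM. RABGAP1L with olaparib alone read 70.7, 90.5 and 96.9, 70.1, 65.4 and 77.1 with 2 µM CDDP and 48.6, 76.5 and 56.6 with 4 µM. RABGAP1L in OlaR cells read 79.4, 85.6 and 72.9 alone, 52.8, 70.8 and 45.8 at 2 µM and 13.2, 26.5 and 25.1 at 4 µM. RABGAP1L overlapped olaparib alone at both added doses, and at 4 µM lay -2.27 ± 0.27 from untreated and -1.89 ± 0.27 from OlaR. In MDA-MB-468, RABGAP1L values were 98.6, 96.4 and 82.6 untreated, 62.9, 48.0 and 50.1 at 1 µM CDDP and 48.4, 59.0 and 54.8 at 2.5 µM. Beside olaparib, RABGAP1L was at 88.5, 77.7 and 85.4 without CDDP, 83.1, 70.4 and 79.95 with 1 µM and 65.3, 76.1 and 74.4 with 2.5 µM. OlaR libraries gave RABGAP1L values of 210.1, 180.0 and 218, 124, 176 and 139 with 1 µM and 152, 109 and 138 with 2.5 µM. RABGAP1L in MDA-MB-468 at 2.5 µM lay -0.76 ± 0.17 from untreated, -0.22 ± 0.17 from olaparib and -0.61 ± 0.17 from OlaR. TBC1D5 is a Rab regulator at the retromer and in autophagy. For TBC1D5 in SUM1315, untreated libraries gave 447, 457 and 413, 2 µM CDDP gave 251, 259 and 233, and 4 µM gave 97.5, 80.3 and 85.7. Olaparib-treated TBC1D5 values were 475, 509 and 473, 414, 418 and 399.8 with 2 µM CDDP and 361, 350.3 and 339 with 4 µM. TBC1D5 in OlaR cells read 397, 395 and 424 alone, 244, 216 and 235 at 2 µM and 141, 144 and 108 at 4 µM. TBC1D5 separated from its reference at both doses in every arm, at -2.31 ± 0.12, -0.47 ± 0.12 and -1.63 ± 0.12 at 4 µM. TBC1D5 read 204, 175 and 169 in untreated MDA-MB-468 libraries, 157, 123 and 159 at 1 µM CDDP and 151, 122 and 129 at 2.5 µM. Beside olaparib, TBC1D5 was at 232, 191 and 187 without CDDP, 160.4, 172 and 179 with 1 µM and 104, 124 and 126 with 2.5 µM. OlaR libraries gave TBC1D5 values of 191, 233 and 288, 187, 164 and 166 with 1 µM and 105, 105 and 124 with 2.5 µM. TBC1D5 in MDA-MB-468 was lower at 2.5 µM beside olaparib (-0.78 ± 0.14) than without it (-0.45 ± 0.14) relative to each reference, with -1.07 ± 0.14 in OlaR cells.

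AGAP1 activates GTP hydrolysis by ARF proteins on endosomes. In SUM1315, AGAP1 values were 259.5, 251 and 299 untreated, 139, 143 and 152 at 2 µM CDDP and 102, 106 and 109.7 at 4 µM. Olaparib-treated AGAP1 values were 172, 159 and 214, 219, 202 and 181 with 2 µM CDDP and 192, 222 and 172 with 4 µM. AGAP1 in OlaR cells read 104, 134 and 106 alone, 61.7, 95.2 and 76.7 at 2 µM and 64.1, 52.1 and 52.5 at 4 µM. AGAP1 beside olaparib overlapped at both doses (0.11 ± 0.17 at 4 µM), against -1.34 ± 0.17 from untreated and -1.01 ± 0.17 from OlaR. For AGAP1 in MDA-MB-468, untreated libraries gave 266, 272 and 234, 1 µM CDDP gave 177, 219 and 222, and 2.5 µM gave 138, 176 and 179. AGAP1 with olaparib alone read 239.8, 231 and 242, 236, 232 and 207 with 1 µM CDDP and 164, 198 and 165 with 2.5 µM. OlaR libraries gave AGAP1 values of 182, 172 and 184, 169.6, 92.3 and 141 with 1 µM and 47.2, 81.9 and 73.9 with 2.5 µM. AGAP1 in MDA-MB-468 lay -0.65 ± 0.16, -0.44 ± 0.16 and -1.43 ± 0.16 from the references at 2.5 µM. BCAS3 works at the forming autophagosome. BCAS3 read 186, 206 and 209.9 in untreated SUM1315 libraries, 62.2, 82.8 and 92.7 at 2 µM CDDP and 19.6, 24.8 and 23.0 at 4 µM. Olaparib-treated BCAS3 values were 155, 156 and 149, 177, 163 and 163 with 2 µM CDDP and 99.3, 97.3 and 86.2 with 4 µM. BCAS3 in OlaR cells read 146, 149.993 and 171 alone, 79.6, 74.1 and 98.7 at 2 µM and 20.1, 29.0 and 17.3 at 4 µM. BCAS3 with olaparib and 2 µM stood above olaparib alone, then -0.70 ± 0.19 from it at 4 µM, against -3.11 ± 0.19 and -2.79 ± 0.19 in the other arms. In MDA-MB-468, BCAS3 values were 35.6, 19.8 and 48.3 untreated, 27.3, 25.0 and 18.8 at 1 µM CDDP and 7.16, 19.2 and 10.1 at 2.5 µM. BCAS3 with olaparib alone read 39.0, 34.8 and 42.1, 35.7, 24.7 and 30.9 with 1 µM CDDP and 7.75, 20.4 and 26.5 with 2.5 µM. OlaR libraries gave BCAS3 values of 34.6, 28.7 and 39.6, 11.2, 22.6 and 19.3 with 1 µM and 3.32, 4.91 and 5.02 with 2.5 µM. BCAS3 in MDA-MB-468 was lowest in OlaR cells at 2.5 µM (-2.71 ± 0.38), with -1.45 ± 0.38 from untreated and -1.19 ± 0.38 from olaparib.

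**Figure D3:**
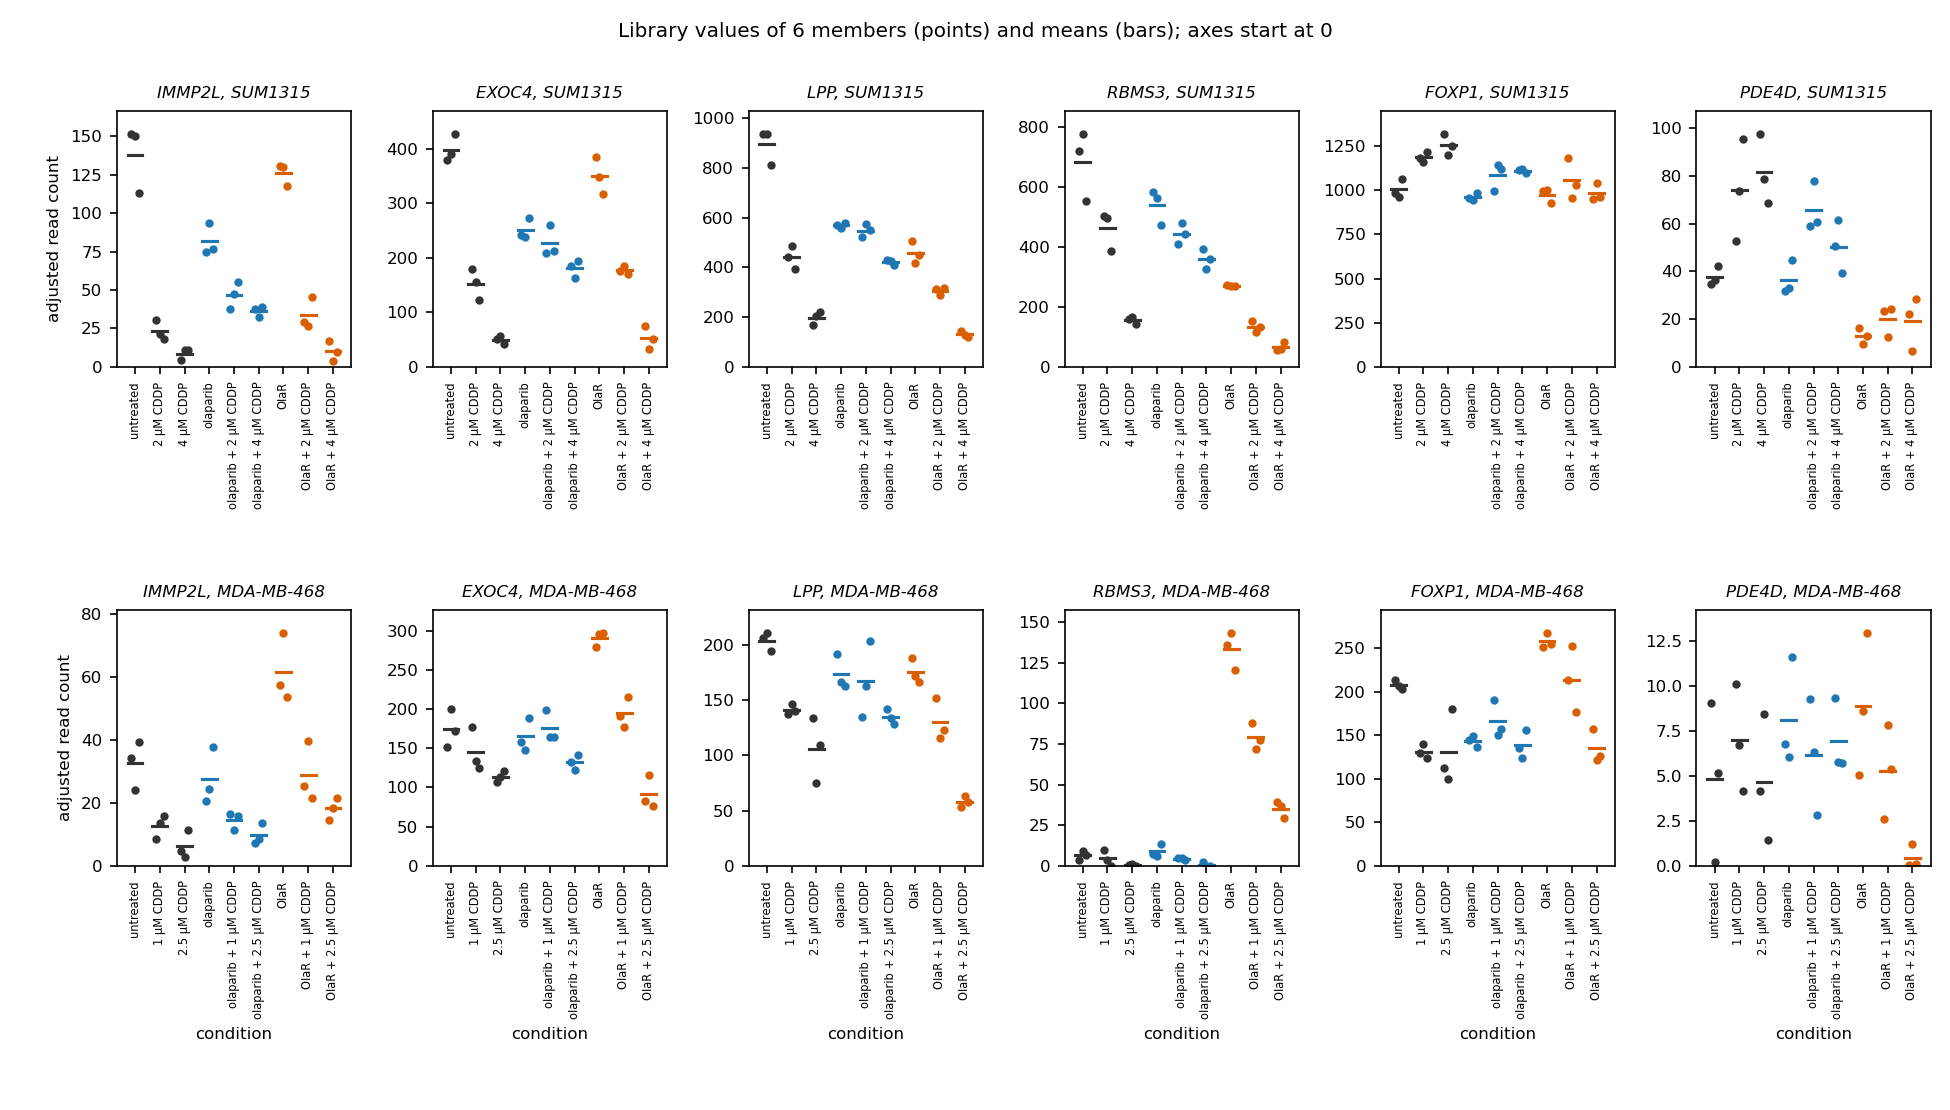
Adjusted read counts (vertical axis) of IMMP2L, EXOC4, LPP, RBMS3, FOXP1 and PDE4D in the 27 libraries of SUM1315 and the 27 of MDA-MB-468. Each point is 1 library, grouped by condition (horizontal axis).

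Signalling enzymes come next. PRKCE is a protein kinase C. For PRKCE in SUM1315, untreated libraries gave 35.4, 58.9 and 69.1, 2 µM CDDP gave 53.1, 51.4 and 44.5, and 4 µM gave 64.7, 91.2 and 37.1. Beside olaparib, PRKCE was at 37.4, 25.0 and 45.0 without CDDP, 31.7, 31.6 and 34.97 with 2 µM and 26.8, 32.4 and 18.6 with 4 µM. PRKCE in OlaR cells read 35.04, 22.8 and 34.4 alone, 15.4, 35.3 and 32.7 at 2 µM and 9.43, 22.4 and 21.7 at 4 µM. PRKCE at 4 µM overlapped untreated (0.20 ± 0.36) and olaparib (-0.44 ± 0.36) and lay below OlaR (-0.82 ± 0.36). PRKCE read 56.3, 66.4 and 69.9 in untreated MDA-MB-468 libraries, 60.2, 47.9 and 59.9 at 1 µM CDDP and 34.0, 54.9 and 34.4 at 2.5 µM. PRKCE with olaparib alone read 44.4, 71.4 and 71.4, 40.7, 60.5 and 51.9 with 1 µM CDDP and 68.4, 67.3 and 56.4 with 2.5 µM. OlaR libraries gave PRKCE values of 45.9, 64.3 and 51.1, 19.5, 25.8 and 26.2 with 1 µM and 6.60, 8.68 and 11.6 with 2.5 µM. PRKCE in MDA-MB-468 was lowest in OlaR cells at 2.5 µM (-2.48 ± 0.25), against -0.66 ± 0.25 from untreated and an overlap beside olaparib. PRKG1, the kinase driven by cyclic GMP, peaked at 19.9 in SUM1315 and had no read in any of 9 OlaR libraries of that line. In MDA-MB-468, PRKG1 values were 12.8, 0.036 and 8.20 untreated, 0.97, 7.71 and 10.7 at 1 µM CDDP and 1.91, 8.62 and 0.21 at 2.5 µM. Beside olaparib, PRKG1 was at 11.4, 10.6 and 8.70 without CDDP, 14.0, 5.26 and 4.59 with 1 µM and 1.91, 2.60 and 4.28 with 2.5 µM. PRKG1 in OlaR cells read 45.6, 18.2 and 30.4 alone, 6.31, 10.9 and 14.8 at 1 µM and 6.14, 6.18 and 5.62 at 2.5 µM. PRKG1 in MDA-MB-468 was highest in OlaR cells without CDDP, and both CDDP doses lay below them (-2.12 ± 0.69 at 2.5 µM). PDE4D breaks down cyclic AMP. For PDE4D in SUM1315, untreated libraries gave 34.9, 36.2 and 42.4, 2 µM CDDP gave 52.8, 73.7 and 95.6, and 4 µM gave 97.5, 78.6 and 68.6. Olaparib-treated PDE4D values were 31.6, 33.04 and 45.0, 59.0, 77.7 and 60.7 with 2 µM CDDP and 50.6, 61.4 and 39.2 with 4 µM. OlaR libraries gave PDE4D values of 16.4, 9.63 and 12.9, 23.3, 12.4 and 24.4 with 2 µM and 22.1, 6.82 and 28.5 with 4 µM. PDE4D stood above untreated at 4 µM in all 3 libraries (1.08 ± 0.35) and overlapped its reference beside olaparib and in OlaR cells at that dose. In MDA-MB-468, PDE4D peaked at 12.96, with overlapping untreated and 2.5 µM values.

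Transcription, chromatin and RNA-binding proteins follow. FOXP1 is a forkhead transcription factor. FOXP1 read 986, 961 and 1066 in untreated SUM1315 libraries, 1182, 1161 and 1215 at 2 µM CDDP and 1317, 1198 and 1251 at 4 µM. Beside olaparib, FOXP1 was at 957, 945 and 983 without CDDP, 996, 1144 and 1119 with 2 µM and 1117, 1118 and 1096 with 4 µM. FOXP1 in OlaR cells read 996, 1000.2 and 926 alone, 1181, 957 and 1031 at 2 µM and 951, 1044 and 961 at 4 µM. FOXP1 at 4 µM stood above untreated (0.32 ± 0.08) and olaparib (0.21 ± 0.08) in all 3 libraries and overlapped OlaR (0.02 ± 0.08). In MDA-MB-468, FOXP1 values were 213, 207 and 204 untreated, 129, 139 and 124 at 1 µM CDDP and 112, 99.3 and 181 at 2.5 µM. Olaparib-treated FOXP1 values were 144, 149 and 137, 191, 151 and 157 with 1 µM CDDP and 135, 124 and 156 with 2.5 µM. OlaR libraries gave FOXP1 values of 251, 267 and 255, 213, 252 and 176 with 1 µM and 157, 122 and 126 with 2.5 µM. FOXP1 in MDA-MB-468 differed from this, lying below untreated (-0.71 ± 0.15) and OlaR (-0.94 ± 0.15) at 2.5 µM and overlapping olaparib; the lines were not tested against each other. AUTS2 is a component of a Polycomb-type complex. For AUTS2 in MDA-MB-468, untreated libraries gave 159, 207 and 177, 1 µM CDDP gave 142, 117 and 125.5, and 2.5 µM gave 178, 158 and 144. AUTS2 with olaparib alone read 155, 221 and 164, 190.0, 170.0 and 156 with 1 µM CDDP and 161, 152 and 154 with 2.5 µM. AUTS2 in OlaR cells read 284, 308 and 332 alone, 276, 299 and 295 at 1 µM and 240.3, 235 and 244 at 2.5 µM. AUTS2 overlapped untreated and olaparib at 2.5 µM (-0.17 ± 0.12 and -0.19 ± 0.12) and lay slightly below OlaR (-0.36 ± 0.12). In SUM1315, AUTS2 peaked at 6.24. RORA is a nuclear receptor. RORA read 14.5, 9.87 and 6.85 in untreated MDA-MB-468 libraries, 13.2, 7.65 and 7.67 at 1 µM CDDP and 7.72, 7.13 and 9.32 at 2.5 µM. Olaparib-treated RORA values were 12.8, 15.8 and 11.9, 13.8, 3.32 and 14.2 with 1 µM CDDP and 10.3, 17.2 and 3.72 with 2.5 µM. OlaR libraries gave RORA values of 41.4, 34.5 and 30.7, 26.4, 27.5 and 28.4 with 1 µM and 23.8, 26.2 and 37.4 with 2.5 µM. RORA in MDA-MB-468 overlapped its reference in all 3 arms at 2.5 µM, and every OlaR library exceeded every parental one. In SUM1315, RORA peaked at 26.3 and overlapped untreated at 4 µM.

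AFF2, the shortest member, belongs to a family of elongation scaffolds. In SUM1315, AFF2 values were 35.6, 20.7 and 11.5 untreated, 4.08, 6.496 and 5.93 at 2 µM CDDP and 4.07, 0 and 0 at 4 µM. AFF2 with olaparib alone read 17.9, 12.7 and 10.99, 12.1, 2.21 and 8.08 with 2 µM CDDP and 1.99, 0.74 and 0 with 4 µM. AFF2 in OlaR cells read 19.0, 22.1 and 19.4 alone, 4.97, 14.5 and 2.07 at 2 µM and 1.28, 1.39 and 1.62 at 4 µM. AFF2 at 4 µM was near 0 in all 3 arms and below every reference library. In MDA-MB-468, AFF2 peaked at 1.70. SUPT3H is a subunit of the coactivator SAGA. For SUPT3H in SUM1315, untreated libraries gave 85.1, 82.9 and 118, 2 µM CDDP gave 29.4, 45.8 and 57.3, and 4 µM gave 9.32, 6.08 and 31.8. Beside olaparib, SUPT3H was at 91.7, 90.6 and 65.0 without CDDP, 50.2, 75.6 and 59.0 with 2 µM and 47.7, 30.3 and 41.5 with 4 µM. OlaR libraries gave SUPT3H values of 83.6, 69.6 and 86.9, 45.6, 35.3 and 42.9 with 2 µM and 8.04, 24.3 and 10.6 with 4 µM. SUPT3H at 4 µM lay -2.83 ± 0.38, -1.04 ± 0.38 and -2.54 ± 0.38 from the 3 references, without overlap. SUPT3H read 117, 90.4 and 66.2 in untreated MDA-MB-468 libraries, 70.3, 90.4 and 85.9 at 1 µM CDDP and 59.95, 69.6 and 60.3 at 2.5 µM. SUPT3H with olaparib alone read 79.5, 103 and 95.1, 111, 103 and 83.9 with 1 µM CDDP and 71.6, 81.6 and 55.3 with 2.5 µM. SUPT3H in OlaR cells read 43.4, 46.8 and 56.5 alone, 38.8, 26.5 and 20.1 at 1 µM and 14.0, 14.8 and 15.5 at 2.5 µM. SUPT3H in MDA-MB-468 overlapped untreated and olaparib at 2.5 µM and lay below OlaR (-1.65 ± 0.22). SMYD3 is a lysine methyltransferase. In SUM1315, SMYD3 values were 147, 142 and 152 untreated, 113, 113 and 94.1 at 2 µM CDDP and 25.8, 29.99 and 50.2 at 4 µM. Beside olaparib, SMYD3 was at 134, 167 and 163 without CDDP, 140.2, 135 and 151 with 2 µM and 83.4, 111 and 71.6 with 4 µM. OlaR libraries gave SMYD3 values of 159, 221 and 208, 98.3, 109 and 83.3 with 2 µM and 37.6, 23.6 and 19.4 with 4 µM. SMYD3 in SUM1315 lay -2.08 ± 0.23 from untreated, -0.81 ± 0.23 from olaparib and -2.86 ± 0.23 from OlaR at 4 µM. For SMYD3 in MDA-MB-468, untreated libraries gave 28.8, 16.5 and 19.5, 1 µM CDDP gave 8.28, 12.5 and 24.0, and 2.5 µM gave 7.64, 14.2 and 4.54. Olaparib-treated SMYD3 values were 23.9, 33.7 and 30.7, 15.4, 21.6 and 17.3 with 1 µM CDDP and 2.68, 4.18 and 2.44 with 2.5 µM. SMYD3 in OlaR cells read 32.9, 25.7 and 16.4 alone, 12.3, 18.9 and 19.0 at 1 µM and 12.3, 16.9 and 5.63 at 2.5 µM. SMYD3 in MDA-MB-468 was lowest beside olaparib at 2.5 µM (-2.90 ± 0.42), against -1.29 ± 0.42 from untreated, and overlapped OlaR.

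RBMS3 binds single-stranded RNA. RBMS3 read 719.9, 777 and 556 in untreated SUM1315 libraries, 503, 499 and 386 at 2 µM CDDP and 160.3, 167 and 142 at 4 µM. Beside olaparib, RBMS3 was at 584, 565 and 475 without CDDP, 411, 481 and 443 with 2 µM and 395, 329 and 361 with 4 µM. OlaR libraries gave RBMS3 values of 274, 269 and 270.0, 153, 117 and 132 with 2 µM and 57.8, 60.5 and 84.4 with 4 µM. RBMS3 at 4 µM lay -2.11 ± 0.15, -0.58 ± 0.15 and -2.01 ± 0.15 from untreated, olaparib and OlaR, without overlap. In MDA-MB-468, RBMS3 values were 3.78, 8.90 and 6.58 untreated, 9.69, 3.83 and 0 at 1 µM CDDP and 0.72, 0.82 and 0 at 2.5 µM. Olaparib-treated RBMS3 values were 7.36, 5.94 and 13.3, 4.57, 4.77 and 3.27 with 1 µM CDDP and 2.35, 0 and 0 with 2.5 µM. RBMS3 in OlaR cells read 136, 143 and 121 alone, 88.1, 72.2 and 77.4 at 1 µM and 39.2, 37.0 and 29.3 at 2.5 µM. RBMS3 in MDA-MB-468 was low in parental cells and high in OlaR cells, where CDDP lay below at both doses (-1.90 ± 0.55 at 2.5 µM). FBXL17 is the adaptor of a ubiquitin ligase that checks protein dimers. For FBXL17 in SUM1315, untreated libraries gave 456, 438 and 389, 2 µM CDDP gave 241, 245 and 199.5, and 4 µM gave 78.1, 67.4 and 89.7. FBXL17 with olaparib alone read 427, 429 and 409, 353, 446 and 303 with 2 µM CDDP and 297, 294 and 283 with 4 µM. OlaR libraries gave FBXL17 values of 121, 115 and 164, 59.1, 59.7 and 77.9 with 2 µM and 30.1, 44.6 and 21.5 with 4 µM. FBXL17 at 4 µM lay -2.44 ± 0.19, -0.53 ± 0.19 and -2.07 ± 0.19 from its references, without overlap. FBXL17 read 138, 127 and 162 in untreated MDA-MB-468 libraries, 106, 109.6 and 105 at 1 µM CDDP and 94.5, 81.5 and 99.8 at 2.5 µM. Olaparib-treated FBXL17 values were 142, 155 and 196, 138, 177 and 167 with 1 µM CDDP and 128, 116 and 108 with 2.5 µM. FBXL17 in OlaR cells read 155, 151 and 158 alone, 105, 107 and 111 at 1 µM and 62.6, 50.2 and 73.6 at 2.5 µM. FBXL17 in MDA-MB-468 lay -0.62 ± 0.15, -0.47 ± 0.15 and -1.32 ± 0.15 from its references at 2.5 µM, again without overlap.

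The shortest coding form spans 0.5 kb in WWOX, 0.9 kb in GPHN, 6.4 kb in SORCS2 and 10.2 kb in BCAS3, which lay below untreated at 4 µM in SUM1315, and 5.9 kb in DMD and 10.1 kb in PRKCE, which overlapped it. Across members with full library values, the Spearman correlation of that shortest span with the log2 fold change was -0.26 without olaparib, -0.21 with it and -0.31 in OlaR cells in SUM1315 (n = 33), and -0.28, -0.32 and -0.14 in MDA-MB-468 (n = 28). The same correlation with full span was 0.15, 0.11 and 0.14 in SUM1315 and -0.13, -0.26 and 0.17 in MDA-MB-468. Members are not independent replicates, since they share libraries, and these coefficients are descriptions. FOXP1 is the 1 member whose last exon overlaps another annotated gene on its own strand, so its reads may include that gene.

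Olaparib alone was compared with untreated cells, and these libraries are also references of the CDDP comparisons, as OlaR libraries without CDDP are. In SUM1315, 1 of 37 members changed by limma, where 9.35% of all genes did: NRG1 was lower, at a log2 fold change of -1.0 ± 0.34, below the lowest untreated library in 3 of 3, a call lost with a pseudocount of 5, a fit of only the groups compared, or without any of 4 single libraries. LPP was lower, at a log2 fold change of -0.65 ± 0.11 in 3 of 3 olaparib libraries, less than 2-fold. EXOC4 was likewise lower in 3 of 3 libraries, at -0.66 ± 0.19, as was AGAP1, at -0.58 ± 0.17. Others went the other way: TENM1, CDH12, GPHN, TBC1D5 and ANKS1B had every olaparib library above every untreated one. Genes without overlap were not counted over all genes, so these names are examples and not an excess. The member median was -0.26. In MDA-MB-468, limma called 0 of 32 members (1.74% of all genes), with 4 at an unadjusted p under 0.05, 3 of them lower, and 0 by edgeR and by DESeq2; the median was -0.03.

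OlaR cells without CDDP were compared with parental cells in olaparib, at different olaparib doses. In SUM1315, 11 of 37 members changed (16.6% of all genes), 10 lower and 1 higher, with a median of -0.26. PRKG1, TENM1, GPC6 and MACROD2 passed the filter only through parental libraries, as ANKS1B did in MDA-MB-468. RBMS3 in MDA-MB-468 passed only through OlaR libraries. The filter itself favours a difference in such members. PRKG1, TENM1 and RBMS3 were called, and GPC6, MACROD2 and ANKS1B in MDA-MB-468 were not. Over genes past the filter in both states, a limit set after seeing the data, 9 of 33 SUM1315 members (13.9% of such genes) and 6 of 29 MDA-MB-468 members (11.6%) changed. Line markers moved both ways between untreated and OlaR means, and their part was not tested. Of 5 mesenchymal-like genes in SUM1315, VIM went from 11980 to 9186, CDH2 from 570.5 to 207.9 and ZEB1 from 466.1 to 137, while SPARC went from 1896 to 2230 and FN1 from 2000 to 2430. All 3 fibroblast genes were lower, COL1A1 at 739 and 161.5, COL3A1 at 136.6 and 1.61 and PDGFRB at 55.93 and 18.96. Of the SUM1315 epithelial or basal genes, KRT17 went from 1534 to 3597 and KRT5 from 0.65 to 23.96. EGFR went from 954.8 to 495 and KRT18 from 354.4 to 307.9, and the neuronal marker SNAP25 from 36.58 to 95.34. In MDA-MB-468, 5 of 7 epithelial or basal genes were higher, KRT5 from 258.8 to 3588, and CDH1 (968.6 to 873.8) and EGFR (2842 to 1895) were lower, while ESR1 went from 63.4 to 216.1. Against olaparib in SUM1315, NRG1 rose, at a log2 fold change of 3.88 ± 0.34, in 3 of 3 OlaR libraries. The member values that follow in this paragraph are also from SUM1315. SORCS2 fell, at a log2 fold change of -3.14 ± 0.38, and TENM1 stood at -3.11 ± 0.43, each lower in 3 of 3 libraries. CDH12 and ANKS1B were lower, at a log2 fold change of -2.04 ± 0.43 and -2.06 ± 0.36, also in 3 of 3. FBXL17 was lower, at a log2 fold change of -1.67 ± 0.19, NBEA at -1.62 ± 0.33 and DMD at -1.37 ± 0.28, without overlap. ADGRL3 and PDE4D were lower, at a log2 fold change of -1.49 ± 0.42 and -1.44 ± 0.35 in 3 of 3 libraries. PRKG1 had 17.0, 10.2 and 4.00 in olaparib libraries and no read in OlaR cells, so no fold change is given.

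In MDA-MB-468, 7 of 32 members changed between OlaR and olaparib (14.3% of all genes), 3 lower and 4 higher, with a median of -0.04. RBMS3 was higher at 3.83 ± 0.55, and RABGAP1L rose, at a log2 fold change of 1.26 ± 0.17, RORA at 1.33 ± 0.43 and IMMP2L at 1.17 ± 0.37, each in 3 of 3 libraries. PARD3 fell, at a log2 fold change of -1.32 ± 0.12, GPHN at -1.06 ± 0.25 and TRAPPC9 at -1.01 ± 0.20, again in 3 of 3. The share of members changed between OlaR and olaparib was 29.7% in SUM1315 and 21.9% in MDA-MB-468, beside 33.7% and 35% of all annotated genes of 500 kb or more.

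CDDP with olaparib was compared with CDDP without it, a difference that also holds the effect of olaparib alone. The interaction, given after these counts, takes out the effect of olaparib alone. It still holds the CDDP libraries that chose the members. Its member values are therefore descriptions and do not decide whether olaparib altered the CDDP response. In SUM1315 at 2 µM, 3 members were higher with olaparib (0.845% of all genes), WWOX, TRAPPC9 and BCAS3, against 5 by edgeR and 5 by DESeq2, with a median of 0.54. At 4 µM, 21 members were higher (1.84%) and 1 lower, PRKCE (0.716%), with a median of 1.20. In MDA-MB-468, limma called 0 members higher at 1 µM (0.0461%), with 8 at an unadjusted p under 0.05 and 0 by edgeR and by DESeq2, and 1 at 2.5 µM (0.131%), PTPRG; the medians were 0.28 and 0.24. The PTPRG call is lost with a pseudocount of 5, no filter, a fit of only the groups compared, or without any of 4 single libraries. The olaparib by CDDP interaction, the change with the higher CDDP dose beside olaparib minus that without, was higher for 20 SUM1315 members (4.05% of all genes), with a median of 1.44. IMMP2L had an interaction of 2.79 ± 0.50, EXOC4 of 2.52 ± 0.26 and LPP of 1.75 ± 0.16, against -0.11 ± 0.12 for FOXP1. In MDA-MB-468, limma called the interaction higher for 0 members (1.06%) and lower for 1, SMYD3 (1.01%), with 11 at an unadjusted p under 0.05, 1 of them lower, and 1 each by edgeR and DESeq2; the median was 0.30.

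The OlaR by CDDP interaction, the change with the higher dose in OlaR cells minus that in parental cells with olaparib, was lower for 16 SUM1315 members (2.09% of all genes) and higher for 1, ADGRL3 (0.464%), with a median of -0.98. In MDA-MB-468 it was lower for 12 members (1.57%) and higher for 1, SMYD3 (0.553%), with a median of -0.85. EXOC4 had the interaction -2.31 ± 0.26 in SUM1315 and -1.36 ± 0.20 in MDA-MB-468. Both interactions use the same olaparib libraries, with and without CDDP, so the opposite signs of their values are not independent of each other.

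**Figure D4:**
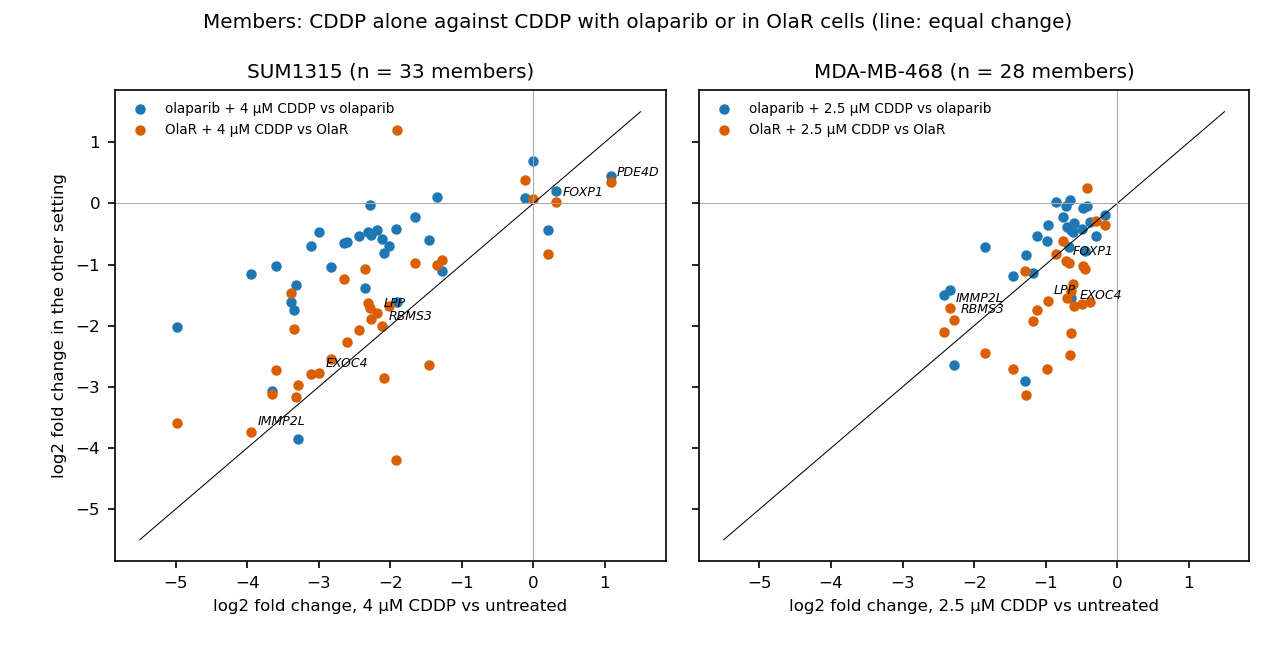
Log2 fold change of each member (points) with full library values at the higher CDDP dose without olaparib (horizontal axis) and beside olaparib or in OlaR cells (vertical axis), with 33 SUM1315 members and 28 MDA-MB-468 members. The line marks equal change, and FHIT with olaparib and 4 µM CDDP had no reads.

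Annotation gave spans for 12772 tested SUM1315 genes and 12678 tested MDA-MB-468 genes. In SUM1315 at 4 µM, the median log2 fold change was 0.12 under 10 kb, 0.14 from 10 to 30 kb, 0 in the next class, then -0.18, -0.49 and -1.51 for the 178 genes of 500 kb or more. Beside olaparib that longest class stood at -0.31, and in OlaR cells at -1.08; without the members the 3 medians were -1.34, -0.19 and -0.99. In MDA-MB-468 the longest class stood at -0.53 with 2.5 µM, -0.30 beside olaparib and -1.02 in OlaR cells, and without the members at -0.45, -0.21 and -0.84. Without the members, 83 of 141 genes of 500 kb or more were lower at 4 µM in SUM1315 (8.16% of all genes), 4 beside olaparib (0.472%) and 57 in OlaR cells (2.89%). In MDA-MB-468 without the members the counts were 12 of 105 (0.953%), 4 beside olaparib (0.638%) and 36 in OlaR cells (1.65%).

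**Figure D5:**
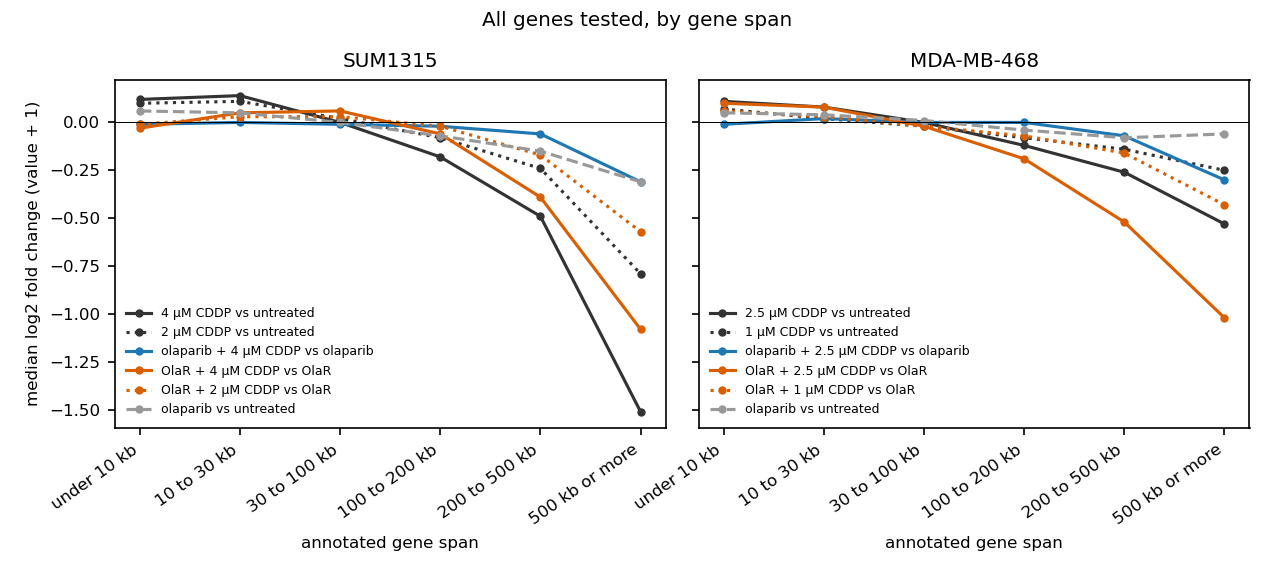
Median log2 fold change (vertical axis) of all tested genes by class of gene span (horizontal axis, kb) in 6 comparisons of each line, on the log2(value + 1) scale. The longest class holds 178 SUM1315 genes and 137 MDA-MB-468 genes.

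TSHZ2, a zinc finger protein, read 710.5, 697.6 and 851.1 untreated and 161, 149.5 and 219 at 4 µM in SUM1315 (log2 fold change -2.10 ± 0.13, adjusted p 1.32e-14), and was lower in 3 of 3 libraries. NFIA, a transcription factor, went from 1561, 1498 and 1592 to 691, 676 and 652 (-1.20 ± 0.08, adjusted p 3.51e-13, lower in 3 of 3). GSE1, a coregulator, went from 950.1, 951 and 762 to 456, 371 and 419 (-1.09 ± 0.11, adjusted p 1.75e-09, lower in 3 of 3). MIR4435-2HG, a noncoding host gene, read 523, 468.1 and 777 untreated and 371, 417 and 411 at 4 µM, lower in 3 of 3 but less than 2-fold (-0.53 ± 0.15, adjusted p 0.00524). MAST4, a kinase, read 1302, 1290 and 1133 untreated and 1386, 1392 and 1271 at 4 µM, which overlap (0.12 ± 0.08, adjusted p 0.248). In MDA-MB-468, ANK3, a membrane anchor, read 1472, 1414 and 1434 untreated and 817, 838 and 813 at 2.5 µM, lower in 3 of 3 (-0.81 ± 0.08, adjusted p 4.35e-12). GMDS, an enzyme of GDP-fucose synthesis, read 724, 729 and 748 in OlaR cells and 265, 294 and 288 with 2.5 µM added, lower in 3 of 3 (-1.38 ± 0.08, adjusted p 8.37e-18). Without olaparib, GMDS went from 721, 932 and 899.5 to 529, 593 and 626 (-0.54 ± 0.08, adjusted p 1.44e-06), and with it from 905.8, 995.3 and 999.4 to 495.1, 530.6 and 485.8 (-0.94 ± 0.08, adjusted p 4.45e-13), each lower in 3 of 3, with an olaparib interaction of -0.4 ± 0.12 (adjusted p 0.0111). That interaction was 0.63 ± 0.11 for ANK3 (adjusted p 1.29e-05), 0.13 ± 0.11 for MIR4435-2HG, 0.1 ± 0.12 for GSE1 and -0.13 ± 0.1 for ADK. In SUM1315 it was above 0 for NFIA, MAST4, MIR4435-2HG, GSE1 and TSHZ2, the last at 1.68 ± 0.18 (adjusted p 3.79e-08). GSE1 in MDA-MB-468 read 887, 970.1 and 936 untreated and 779, 778 and 738 at 2.5 µM, lower in 3 of 3 (-0.28 ± 0.08, adjusted p 0.00728). ADK, adenosine kinase, read 713, 747 and 710.1 untreated and 649, 626 and 658 at 2.5 µM, lower in 3 of 3 without reaching the threshold (-0.17 ± 0.07, adjusted p 0.0932). MIR4435-2HG overlapped there, at 845, 1011 and 824 untreated and 843, 883 and 882 at 2.5 µM (-0.03 ± 0.08, adjusted p 0.81).

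Of 14 other genes described at common fragile sites, 4 were tested in each line. DPYD, which degrades pyrimidines, read 159.9, 145 and 178 untreated and 58.6, 68.7 and 62.7 at 4 µM, lower in 3 of 3 (-1.33 ± 0.21, adjusted p 4.27e-06). LRP1B, a receptor, read 25.0, 33.1 and 32.0 untreated and 3.06, 0 and 0.85 at 4 µM, lower in 3 of 3 (-3.97 ± 0.69, adjusted p 1.83e-05). The list median at the higher dose was -2 in SUM1315, -1 beside olaparib and -1.57 in OlaR cells, and in MDA-MB-468 -0.90, -0.30 and -1.50. THSD7A, outside the span limit at 461.8 kb, read 48.6, 46.6 and 34.99 untreated and 14.3, 8.41 and 17.6 at 2.5 µM in MDA-MB-468, lower in 3 of 3 and the only one of the 4 past the threshold there (-1.66 ± 0.43, adjusted p 0.00241).

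Genes for elongation, transcription-coupled repair and long-gene transcription number 34, of which 32 and 33 were tested, with medians of 0.09 at 4 µM in SUM1315 and -0.04 at 2.5 µM in MDA-MB-468. At 4 µM in SUM1315, 1 of the 32 was lower (8.16% of all genes) and 1 higher (7.24%). UVSSA, which helps to repair stalled transcription, read 177, 155 and 243 untreated in SUM1315 and 84.2, 95.4 and 65.8 at 4 µM, lower in 3 of 3 (-1.21 ± 0.20, adjusted p 7.51e-06). It was also lower with olaparib alone (-1.06 ± 0.20), and 4 µM in OlaR cells gave -0.29 ± 0.20. ERCC8, of the same pathway, read 98.4, 87.9 and 59.2 untreated and 160.3, 191 and 156 at 4 µM, higher in 3 of 3 (1.07 ± 0.19, adjusted p 3.15e-05). Of 24 genes with labile transcripts, 5 were lower (8.16% of all genes) and 6 higher (7.24%) at 4 µM in SUM1315, and of 23 tested in MDA-MB-468 4 were higher at 2.5 µM (1.64%). MCL1, a survival protein, went from 8521, 9594 and 6430 to 3483, 3365 and 3517 in SUM1315, lower in 3 of 3 (-1.22 ± 0.13, adjusted p 1.54e-09). JUNB, an immediate-early factor, went from 3878, 4157 and 3046 to 1758, 1866 and 1761 (-1.03 ± 0.13, adjusted p 4.77e-08), lower in 3 of 3. IER2, an immediate-early regulator, went from 3050, 3001 and 3530 to 1549, 1537 and 1572 (-1.04 ± 0.12, adjusted p 1.06e-08), lower in 3 of 3. CXCL8, a chemokine, went from 4340, 4702 and 3536 to 7617, 9797 and 9185 (1.08 ± 0.15, adjusted p 2.68e-07), higher in 3 of 3. In MDA-MB-468, JUN, a factor of the same class, went from 609.7, 677 and 684 to 1570, 1606 and 1670 (1.30 ± 0.08, adjusted p 1.04e-18), higher in 3 of 3. ATF3, a stress-induced factor, went from 64.3, 72.2 and 70.2 to 292, 270.2 and 255 (1.97 ± 0.17, adjusted p 1.2e-13), higher in 3 of 3. DUSP1, a phosphatase of MAP kinases, went from 48.95, 43.2 and 68.6 to 219, 201 and 223 (2.01 ± 0.23, adjusted p 1.35e-09), higher in 3 of 3. CXCL8 had no read untreated in MDA-MB-468 and read 9.52, 1.15 and 11.1 at 2.5 µM (adjusted p 0.00388), so no fold change is given.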

How the data were processed

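The deposited table holds signal values of 3′-end reads aligned to hg38, read here as counts adjusted with edgeR to a common library size within each condition, which no label states; the submitters' processing notes name CASAVA 1.8.2, FastQC, STAR, HTSeq and edgeR. Inverting that adjustment gave back whole reads for 100% of 1483380 values (largest relative difference 2.4e-08). The authors' tables of fold changes against untreated cells were not used. log2(adjusted read count + 1) was fitted per line with limma 3.58.1 (trend, R 4.3.3), with Benjamini-Hochberg adjustment over all tested genes, and repeated with edgeR 4.0.16 and DESeq2 1.42.0; figures used matplotlib 3.10.9. Gene spans, exons and sequences came from GRCh38 with annotation release 44. Members and lists were chosen with earlier results of these data known. Full library values are given for members with a mean of at least 20 in untreated, olaparib or OlaR libraries of a line, named other long genes are the 5 per line with the highest mean over untreated, olaparib and OlaR libraries, and named list genes are at most 4 per list and line past the threshold at the higher CDDP dose, by untreated mean. Other names were chosen after their values were seen.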

Additional observations from a re-analysis of the deposited data

Results flagged for a closer look

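Interaction terms tested the change with the higher CDDP dose between arms, for annotated genes of 500 kb or more with the 41 members left out. In SUM1315, the olaparib interaction was positive past the threshold for 47 of 141 genes (4.05% of all genes), and the OlaR interaction, OlaR minus parental cells with olaparib, was negative for 31 of 141 (2.09%). In MDA-MB-468, the same terms were past the threshold for 2 of 105 genes (1.06%) and 17 of 105 (1.57%). Olaparib alone lowered 17 of the 141 SUM1315 genes (12.1%, against 4.36% of all genes), and these terms share its libraries. The cause was not tested.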

How the results depend on the processing

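With the replicate number as a replicate block, all 690 member comparisons (37 or 32 members in 10 comparisons of a line, interactions not included) were on the same side of the threshold. Over the alternatives that kept the 2-fold limit, 9898 of 10191 member values kept their direction and side. Of the rest, 206 were no longer past the threshold, 87 came past it and 0 reversed. Counts with no fold limit, given below, are not among these values. For counts that moved by more than 1.5 times, unless a change in span or fold limit makes it so, the cause was not tested.

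In SUM1315, 1 member changed with olaparib (NRG1). The count was 0 with a pseudocount of 5 or a fit of only the groups compared, 2 with no filter and 6 with no fold limit (36% of all genes). Leaving out 1 library gave 0 to 1, with 0 without olaparib replicate 1 or 3 or untreated replicate 1 or 3. Annotated genes of 500 kb or more lower at 4 µM numbered 113, against 176 with no filter, 220 at 300 kb and 22 at 1000 kb. With olaparib added there were 16, against 31 with no fold limit (4.09%), 6 at 1000 kb and 4 with members left out. In OlaR cells there were 83, against 159 at 300 kb and 14 at 1000 kb.

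In MDA-MB-468, with no fold limit, members lower went from 12 to 25 at 2.5 µM (11.8% of all genes) and from 8 to 14 with olaparib added (13.1%); members changed went from 0 to 2 with olaparib (21.5%) and from 7 to 16 in OlaR cells (51.5%). The 1 member higher with olaparib and 2.5 µM than with 2.5 µM (PTPRG) became 0 with a pseudocount of 5, no filter or only the groups compared, 2 with edgeR and TMM, and 4 with no fold limit (4.63%). Leaving out 1 library gave 0 to 1, with 0 without 2.5 µM CDDP replicate 1 or 3 or olaparib with 2.5 µM replicate 2 or 3. Long genes lower at 2.5 µM numbered 24, against 65 with no fold limit, 40 at 300 kb, 5 at 1000 kb and 12 with members left out. With olaparib added there were 12, against 30, 22, 3 and 4 in that order. In OlaR cells there were 58, against 120 at 300 kb, 8 at 1000 kb and 36 with members left out.

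Members lower at 4 µM in SUM1315 numbered 29 without any single library, 8 to 11 with olaparib added and 24 to 27 in OlaR cells, and 10 to 14, 6 to 8 and 20 to 23 in MDA-MB-468 at 2.5 µM. OlaR libraries were the shallowest of both lines, which limits members with few reads.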
